A study of Rattus norvegicus with 6 samples.

Results

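The growth hormone and IGF axis of the rat liver was read from 10 genes, Igf1, Igfals, Igfbp1, Igfbp2, Igfbp3, Igfbp4, Ghr, Socs2, Cish and Stat5b. They were taken as the entries of the deposited gene table whose symbol equals one of these names, and each symbol had 1 entry among the 19616 genes of the table. The study compared fibrotic with normal liver of male SD (Sprague Dawley) rats by sequencing liver RNA from which ribosomal RNA had been removed. Over 5 weeks, 2 intraperitoneal doses per week were given, each of 2 mL/kg body weight. For the FL group (rats FL2, FL5 and FL12) a dose held equal parts of CCl4 and olive oil, and for the CL group (rats CL5, CL6 and CL7) it was as large but held olive oil alone. CCl4 (carbon tetrachloride) is converted to radicals in hepatocytes, so that the model is one of repeated toxic injury to these cells. Each of the 6 rats gave 1 library, so n is 3 rats per group, and the age of the rats is not given in the sources used here.

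Growth hormone from the pituitary binds its receptor on hepatocytes, the receptor-bound kinase JAK2 phosphorylates the transcription factor STAT5B, and STAT5B switches on Igf1, Igfals and the feedback inhibitors Socs2 and Cish. The liver is the main source of circulating IGF1, which travels in blood bound to IGF binding proteins, most of it in a complex with IGFBP3 and the acid-labile subunit encoded by Igfals. In male rats growth hormone is released in pulses with long troughs between them, in females more evenly, and this pattern sets which sex-biased genes the liver expresses.

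In the fibrotic livers the transcripts of 2 parts of the circulating IGF complex and of the receptor were lower, and 1 binding protein was higher. Igf1, Igfals and Ghr fell and Igfbp2 rose, with no overlap between the 3 FL and the 3 CL rats in any of the 4, as in 40.5% of all genes tested. Igfbp3 and Igfbp4 differed little, and Stat5b was lower in 2 of the 3 FL rats without passing. For Socs2, Cish and Igfbp1 the CL group itself was split, since CL5 lay in or beyond the range of the FL rats while CL6 and CL7 lay apart from it.

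Expression is given as FPKM, the sequenced fragments of a gene scaled to transcript length and to library size, so levels of different genes can be compared. Differences between groups were tested with limma on log2(FPKM + 0.1) in the 14864 genes averaging at least 0.1 FPKM over the 6 rats, and p-values were adjusted over all of them by the Benjamini-Hochberg method. A gene passed at an adjusted p under 0.05, and the term differentially expressed gene (DEG) was kept for those with a fold change of at least 2 besides. Fold changes are FL relative to CL on that log2 scale, which understates the change of genes with low FPKM, and SE is the moderated standard error from limma. The adjusted p-values given as spanned by the alternatives are the lowest and highest over 14 other ways of processing the values. The gene table gives no number of reads per rat. A relative depth could be read from the steps in which low U6 values rise, and was 1, 0.656 and 0.84 in CL5, CL6 and CL7 and 0.677, 0.75 and 0.677 in FL2, FL5 and FL12. By this measure alone CL5 was the deepest. The number of genes at 0 FPKM did not follow it, with 3356, 3560 and 3200 in the CL rats and 3070, 2478 and 2909 in the FL rats.

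All 10 genes of the axis could be tested, and 4 of them passed. Igfbp2 was the 1 gene of 10 that passed as higher, where 16.9% of all genes tested did, and Igf1, Igfals and Ghr were the 3 of 10 that passed as lower, where 1.94% did. Igfbp2 also met the fold limit for a DEG (9.29% of all genes tested were higher DEGs), and 0 of the 3 lower genes met it (0.935% were lower DEGs). The same 4 genes were those without overlap between the groups, against 40.5% of all genes tested. By direction, 5311 of the 14864 genes tested were higher without overlap and 711 were lower. At an unadjusted p under 0.05, 1 gene of the axis was higher and 4 were lower, the added one being Socs2, where 31.5% and 4.04% of all genes tested were. The median log2 fold change was -0.38 over the 10 genes and 0.29 over all genes tested. The median over all genes became 0.08 with median scaling between rats and -0.04 with quantile normalization. The split of all genes that passed moved with it, from 2518 higher and 288 lower to 1302 and 532 with median scaling and to 778 and 536 with quantile normalization.

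CL5 stood apart in specific genes of the axis, so results that rest on it are given with and without it. After the values had been seen, genes averaging at least 1 FPKM (10535 genes) were counted in which a rat differed at least 4-fold from both other rats of its group. There were 19 such genes for CL5, 12 for CL6 and 8 for CL7, and 38, 24 and 16 for FL2, FL5 and FL12. Cish and Socs2 were among the 19 genes of CL5, and no gene of the axis was among those of the other 5 rats. CL5 was thus not unusual by the number of such genes, and FL2 had the most. Without CL5, 14961 genes could be tested, of which 8.76% were higher and 1.06% lower. The axis then held 2 higher genes, Igfbp1 and Igfbp2, and 3 lower ones, Igf1, Socs2 and Cish, so that Ghr and Igfals no longer passed. CL5 was picked after its values of Socs2, Cish and Igfbp1 had been seen. That these genes passed without CL5 is therefore no separate support for a change in them. Leaving out FL2 instead gave 1 higher and 4 lower genes of the axis, where 3198 and 338 of 14847 genes tested were.

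**Figure D1:**
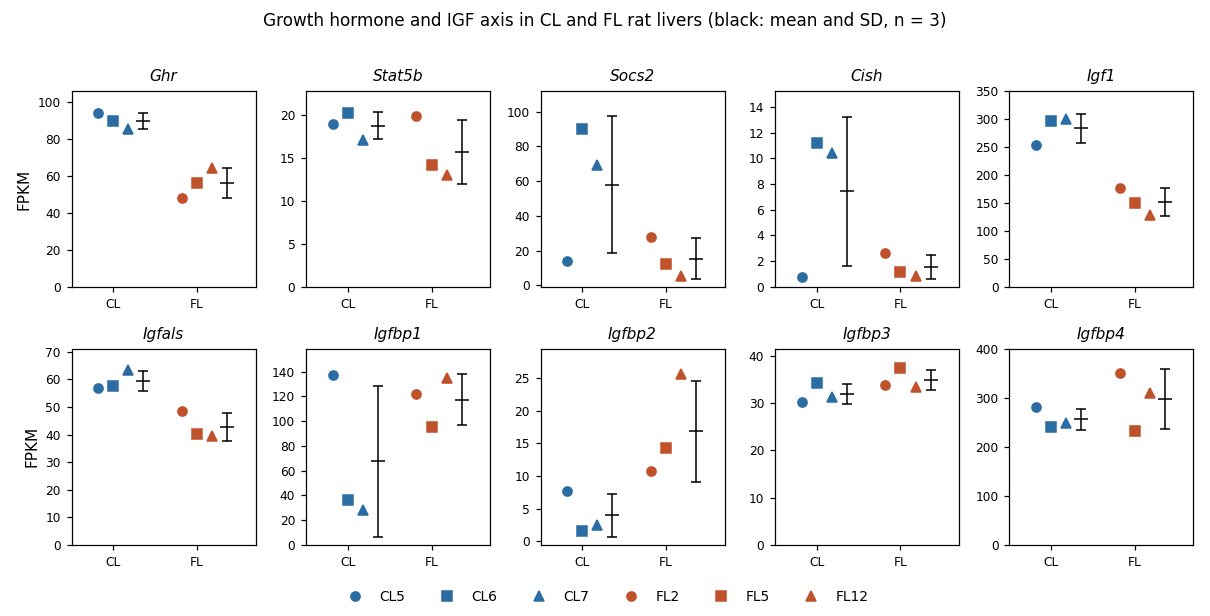
FPKM of the 10 genes of the axis in each rat, 1 panel per gene, with points for the 3 CL and 3 FL rats and the mean with SD of each group. The FL points of Igf1, Igfals and Ghr lie below all CL points, those of Igfbp2 lie above them, and CL5 lies far from CL6 and CL7 for Socs2 (14.2 FPKM against 90.1 and 69.4 FPKM), Cish and Igfbp1.

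Igf1 (ENSRNOG00000004517, chromosome 7), the peptide hormone that carries much of the growth effect of growth hormone, read 254, 297 and 301 FPKM in rats CL5, CL6 and CL7, against 178, 150.1 and 129 FPKM in rats FL2, FL5 and FL12. The lowest CL rat was well above the highest FL rat, and FL12 was the lowest of all. Among all 19616 genes Igf1 held rank 129, 114 and 107 by FPKM in the CL rats, against rank 186, 209 and 240 in the FL rats, so it stayed an abundant transcript in fibrotic liver. The group means were 284 ± 25.9 FPKM in CL and 152 ± 24.7 FPKM in FL (SD, n = 3 rats each). The log2 fold change was -0.91 (SE 0.17), with each of the 3 FL rats below each CL rat (adjusted p = 0.0119 by limma). The call was lost in 1 of the 14 alternatives, without CL7 (log2 fold change -0.87, adjusted p = 0.0522, alternatives spanning 0.00664 to 0.0522). With median scaling the log2 fold change was -1.13, beyond the fold limit for a DEG. In bulk liver RNA, fewer cells of a type and less RNA per cell cannot be told apart.

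Igfals (ENSRNOG00000015061, chromosome 10), the acid-labile subunit that keeps IGF1 in the circulation, read 56.9, 57.7 and 63.4 FPKM in rats CL5, CL6 and CL7, against 48.6, 40.2 and 39.5 FPKM in rats FL2, FL5 and FL12. All FL rats were below all CL rats, and FL2 was nearest to the CL group. The means were 59.4 ± 3.51 FPKM and 42.8 ± 5.08 FPKM (SD, n = 3). The log2 fold change of -0.48 (SE 0.13) passed by a small margin (adjusted p = 0.0361 by limma). It was the smallest of the 4 changes that passed and the call depended on the rats included. Its adjusted p was 0.0761 without CL5, 0.0891 without CL6, 0.127 without CL7, 0.113 without FL5 and 0.0964 without FL12, alternatives spanning 0.0145 to 0.127, while the log2 fold change with a rat left out stayed between -0.57 and -0.42. It was also lost with no filter on low values (0.0539) and by limma without trend (0.0736).

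Igf2, the second IGF, which is largely a fetal hormone in the rat liver, read between 0.09 and 0.27 FPKM in the 6 rats. Igf1 was thus the only IGF ligand expressed at more than 1 FPKM in any rat.

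Ghr (ENSRNOG00000015654, chromosome 2), the growth hormone receptor, read 94.1, 89.9 and 85.3 FPKM in rats CL5, CL6 and CL7, against 48.1, 56.0 and 64.4 FPKM in rats FL2, FL5 and FL12. The CL rats lay close together and above all FL rats, and CL5 had the highest value. The means were 89.7 ± 4.42 FPKM and 56.1 ± 8.16 FPKM (SD, n = 3), with a log2 fold change of -0.68 (SE 0.14, adjusted p = 0.0150 by limma). The order of the FL rats was the reverse of that for Igf1, as FL2 had the least Ghr and the most Igf1. Ghr lost its call without CL5 (log2 fold change -0.65, adjusted p = 0.0521), without CL6 (-0.68, 0.0516) and without FL5 (-0.69, 0.0529), alternatives spanning 0.00681 to 0.0529.

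Stat5b (ENSRNOG00000019075, chromosome 10), the transcription factor that relays the signal, read 18.9, 20.3 and 17.1 FPKM in rats CL5, CL6 and CL7, against 19.9, 14.2 and 13.0 FPKM in rats FL2, FL5 and FL12. FL2 lay among the CL rats and the other FL rats lay below them. A log2 fold change of -0.28 did not pass (SE 0.17, adjusted p = 0.280 by limma). Without FL2 it was -0.46 and passed (adjusted p = 0.0391, alternatives spanning 0.0391 to 0.581), and it was -0.50 with median scaling and -0.45 with quantile normalization (0.127 and 0.170). FPKM measures the transcript, and the phosphorylation that activates the protein was not measured.

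Socs2 (ENSRNOG00000008965, chromosome 7), a feedback inhibitor of the receptor, read 14.2, 90.1 and 69.4 FPKM in rats CL5, CL6 and CL7, against 28.1, 12.5 and 5.30 FPKM in rats FL2, FL5 and FL12. CL6 and CL7 stood above all FL rats, whereas CL5 stood between FL2 and FL5. The groups therefore overlapped, with means of 57.9 ± 39.3 FPKM and 15.3 ± 11.7 FPKM (SD, n = 3). The log2 fold change of -1.85 did not pass (SE 0.77, adjusted p = 0.130 by limma). Without CL5 it was -2.67 and passed (SE 0.61, adjusted p = 0.0412, alternatives spanning 0.0412 to 0.325). It was -1.342 without CL6, -1.53 without CL7 and -1.245 without FL12.

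Cish (ENSRNOG00000029543, chromosome 8), the other feedback inhibitor, read 0.74, 11.2 and 10.4 FPKM in rats CL5, CL6 and CL7, against 2.62, 1.15 and 0.87 FPKM in rats FL2, FL5 and FL12. CL5 was the lowest of all 6 rats, so the CL group held both the highest and the lowest values. The log2 fold change was -1.64 (SE 0.94, adjusted p = 0.246 by limma). Without CL5 it was -2.87 with an SE of 0.41 and passed (adjusted p = 0.0163, alternatives spanning 0.0163 to 0.546), and it was -0.996 without CL6 and -1.05 without CL7. On the log2 scale CL5 was -3.64 from the nearer of CL6 and CL7 for Cish and -2.28 for Socs2. Within the FL group, both inhibitors stood highest in FL2 and lowest in FL12.

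Igfbp1 (ENSRNOG00000058780, chromosome 14), a short-lived IGF carrier whose gene is repressed by insulin, read 138, 36.5 and 28.2 FPKM in rats CL5, CL6 and CL7, against 122, 95.0 and 135 FPKM in rats FL2, FL5 and FL12. CL5 had the highest value of all 6 rats, and CL6 and CL7 were below every FL rat. The log2 fold change of 1.15 did not pass (SE 0.52, adjusted p = 0.156 by limma). Without CL5 it was 1.85 with an SE of 0.20 and passed (adjusted p = 0.00873, alternatives spanning 0.00873 to 0.409), and without CL7 it was 0.71. CL5 was thus low in the inhibitors and high in this carrier, while its Igf1, Igfals and Ghr lay near those of CL6 and CL7, with log2 gaps of -0.22, -0.02 and 0.07.

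Igfbp2 (ENSRNOG00000016957, chromosome 9), a carrier that limits the supply of IGF to tissues, read 7.70, 1.61 and 2.50 FPKM in rats CL5, CL6 and CL7, against 10.8, 14.3 and 25.7 FPKM in rats FL2, FL5 and FL12. Every FL rat was above every CL rat, though CL5 came close to FL2. The means were 3.94 ± 3.29 FPKM and 16.9 ± 7.77 FPKM (SD, n = 3). Its log2 fold change of 2.29 was the largest of the 10 in size with the main settings (SE 0.54, adjusted p = 0.0257 by limma). It was 2.92 without CL5 (adjusted p = 0.0125). With quantile normalization Cish was larger in size (-2.095 against 2.039), and with median scaling Socs2 was about as large (-2.07 against 2.068). Igfbp2 lost its call without CL6 (adjusted p = 0.0687), CL7 (0.0945), FL5 (0.0730) or FL12 (0.0795), alternatives spanning 0.0125 to 0.0945, and also with no filter on low values (0.0944), with quantile normalization (0.0598) and by limma without trend (0.0554), in 7 of the 14 alternatives in all. Its log2 fold change without 1 of these 4 rats was between 1.82 and 2.36.

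Igfbp3 (ENSRNOG00000061910, chromosome 14), the main carrier of IGF1 in serum, read 30.2, 34.3 and 31.3 FPKM in rats CL5, CL6 and CL7, against 33.7, 37.4 and 33.4 FPKM in rats FL2, FL5 and FL12. The groups overlapped and all 6 values lay within a narrow range. A log2 fold change of 0.13 (SE 0.11, adjusted p = 0.441 by limma) turned to -0.10 with median scaling.

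Igfbp4 (ENSRNOG00000010635, chromosome 10), a carrier that holds IGF1 back from its receptor, read 281, 240.4 and 249 FPKM in rats CL5, CL6 and CL7, against 351, 232 and 310 FPKM in rats FL2, FL5 and FL12. FL5 was the lowest of all and FL2 the highest, so the FL group spanned the CL group. A log2 fold change of 0.20 (SE 0.19, adjusted p = 0.499 by limma) turned to -0.030 with median scaling.

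**Figure D2:**
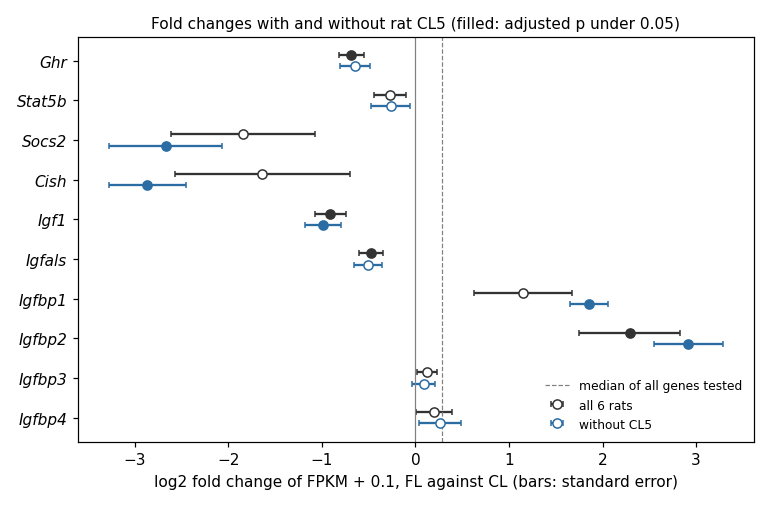
Log2 fold change of FL relative to CL for the 10 genes with its standard error, from all 6 rats and without CL5; filled points have an adjusted p under 0.05, and the dashed line is the median of all genes tested (0.29). Socs2, Cish and Igfbp1 lie farther from 0 and have smaller errors without CL5, a rat picked after its values of these genes had been seen. Ghr and Igfals hardly move.

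Set against Igfbp4, Igfbp2 or Igfbp1 in the same rat, Igf1 was lower in every FL rat than in every CL rat. The ratio of Igf1 to Igfbp4 FPKM was 0.905, 1.24 and 1.21 in CL5, CL6 and CL7 and 0.507, 0.647 and 0.415 in FL2, FL5 and FL12. The ratio of Igf1 to Igfbp2 FPKM was 33.0, 185 and 120.0 in the CL rats and 16.4, 10.5 and 5.01 in the FL rats. This ratio could not overlap, since Igf1 was lower and Igfbp2 higher in every FL rat, so it adds no further result. The ratio of Igf1 to Igfbp1 FPKM was 1.85, 8.15 and 10.7 in the CL rats and 1.46, 1.58 and 0.955 in the FL rats. In this last ratio CL5 lay much nearer to the FL rats than to the other CL rats. These ratios compare transcripts and give no protein level, and they were not tested.

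Summed over Igfbp1 to Igfbp7, the carriers came to 480.0, 339 and 341 FPKM in rats CL5, CL6 and CL7, against 559.8, 450.1 and 561 FPKM in rats FL2, FL5 and FL12. CL5 was between the FL rats and the other CL rats were below them. Igfbp4 made up most of the sum in each rat, from 58.5% to 73.1% in the CL rats and from 51.5% to 62.8% in the FL rats. The share of Igfbp1 was 28.7%, 10.8% and 8.27% in CL5, CL6 and CL7 and 21.8%, 21.1% and 24.0% in FL2, FL5 and FL12.

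Around these 10 genes, 7 lists took in the rest of the pathway, with growth hormone signalling, the SOCS family, IGF and insulin receptors and their substrates, IGF ligands, IGF binding proteins, the proteases that cleave these, and liver transcription factors tied to growth hormone. With the 10 genes they held 44 symbols, all of them in the table, and 40 could be tested. Socs1, Pappa, Pappa2 and Stc2 were too low. Of the 40, 6 were higher (Igfbp2, Igfbp7, Igf2r, Jak2, Ptpn1 and Ptpn6) and 3 were lower. Outside the 10 genes, 5 of 30 were higher and 0 lower by limma, against 8 and 1 at an unadjusted p under 0.05 (31.5% and 4.04% of all genes), and the median log2 fold change of these 30 was 0.28, close to the 0.29 of all genes. The shares of all genes that passed as higher or lower, 16.9% and 1.94%, were close to those of these 30 genes.

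Of the 11 genes of growth hormone signalling, 3 were higher and 1, Ghr, was lower, where 16.9% and 1.94% of all genes were. Jak2, the kinase bound to the receptor, read 2.35, 2.70 and 2.45 FPKM in rats CL5, CL6 and CL7, against 4.11, 4.41 and 3.15 FPKM in rats FL2, FL5 and FL12. It was above all CL rats in each FL rat (log2 fold change 0.61, SE 0.17, adjusted p = 0.0420 by limma), while Ghr moved the other way. Its call was lost in 9 of the 14 alternatives, among them without CL5 (adjusted p = 0.115), CL6 (0.0812), CL7 (0.129), FL2 (0.0714) or FL5 (0.132), alternatives spanning 0.0306 to 0.439. Its log2 fold change shrank to 0.39 with median scaling and to 0.23 with quantile normalization (0.439).

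Ptpn1, a phosphatase that removes phosphate from JAK2 and from the insulin receptor, read 4.11, 3.90 and 4.71 FPKM in rats CL5, CL6 and CL7, against 6.99, 6.51 and 7.04 FPKM in rats FL2, FL5 and FL12. The groups were well apart (log2 fold change 0.68, SE 0.13, adjusted p = 0.0117 by limma). Ptpn6, a phosphatase found mostly in blood cells, read 6.64, 6.94 and 6.31 FPKM in the CL rats, against 9.67, 11.5 and 9.87 FPKM in the FL rats. It also showed no overlap (log2 fold change 0.63, SE 0.12, adjusted p = 0.0126), and passed no longer without CL7 (adjusted p = 0.0550, alternatives spanning 0.00998 to 0.0688). Both were lost with quantile normalization (log2 fold change 0.39 and 0.38, adjusted p = 0.118 and 0.0688), and Ptpn1 with median scaling (0.0655, alternatives spanning 0.00827 to 0.118).

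Stat5a, Stat3, Sh2b1, Ptpn11 and Prlr were also on that list, and none of them passed. Stat3, which relays cytokine signals such as that of interleukin 6, read 23.6, 20.2 and 22.2 FPKM in rats CL5, CL6 and CL7, against 44.9, 20.8 and 23.8 FPKM in rats FL2, FL5 and FL12, so FL2 alone stood above the others. Prlr, the prolactin receptor, read 1.22, 0.31 and 1.47 FPKM in the CL rats, against 7.62, 0.52 and 4.32 FPKM in the FL rats, and FL5 lay among the CL rats. Its log2 fold change of 1.55 (adjusted p = 0.257 by limma) passed without FL5, where it was 2.62 (adjusted p = 0.0449, alternatives spanning 0.0449 to 0.539), and it was 0.81 without FL2 and 0.94 without CL6.

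In the SOCS family 0 of 7 genes tested passed by limma (all genes, 16.9% higher and 1.94% lower), against 1 higher and 1 lower at an unadjusted p under 0.05 (all genes, 31.5% and 4.04%). Socs3, the inhibitor induced by interleukin 6 and STAT3, read 1.19, 3.42 and 3.21 FPKM in rats CL5, CL6 and CL7, against 15.1, 2.55 and 2.23 FPKM in rats FL2, FL5 and FL12. FL2, the rat with the highest Stat3, was the highest for Socs3 too, and the other FL rats lay among the CL rats (log2 fold change 0.88, adjusted p = 0.405). The fold change was 0.46 with quantile normalization and 0.41 without CL5, and almost nothing was left of it without FL2 (0.0099). CL5 was the lowest rat for Socs3, as it was for Cish. Socs5 and Socs6 were higher in each FL rat than in each CL rat without passing. Of the 14864 genes tested, 40.5% did not overlap between the groups, and 5311 were higher without overlap. Levels of Socs5 were 1.87 to 2.06 FPKM in CL and 2.48 to 3.31 FPKM in FL. Those of Socs6 were 2.61 to 2.93 FPKM in CL and 3.16 to 3.49 FPKM in FL. Socs5 (log2 fold change 0.54, adjusted p = 0.0555) passed without FL2 (0.64, 0.0308, alternatives spanning 0.0308 to 0.630) and among genes averaging at least 1 FPKM (0.0452), and shrank to 0.32 with median scaling (0.190) and to 0.12 with quantile normalization (0.630).

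Among the receptors and substrates, 1 of 5 genes was higher and 0 lower by limma (all genes, 16.9% and 1.94%), against 2 and 0 at an unadjusted p under 0.05 (31.5% and 4.04%). Igf2r, the receptor that takes up IGF2 for degradation and also carries lysosomal enzymes, read 7.49, 6.24 and 6.04 FPKM in rats CL5, CL6 and CL7, against 10.3, 14.4 and 17.4 FPKM in rats FL2, FL5 and FL12. All FL rats were above all CL rats (log2 fold change 1.05, SE 0.20, adjusted p = 0.0119 by limma), and the call was lost without CL7 (adjusted p = 0.0515, alternatives spanning 0.00413 to 0.0515). Igf1r, the receptor through which IGF1 acts, was low in whole liver, at 0.72, 0.80 and 0.60 FPKM in the CL rats, against 0.78, 1.71 and 1.51 FPKM in the FL rats. FL2 lay among the CL rats for Igf1r (log2 fold change 0.77, adjusted p = 0.114), and without FL2 it passed (1.09, 0.0165, alternatives spanning 0.0165 to 0.612), while with quantile normalization it shrank to 0.22 (0.612). Insr, the insulin receptor, lay between 17.2 and 17.9 FPKM in all 6 rats (log2 fold change 0.01).

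Of the 7 IGF binding proteins, 2 were higher, Igfbp2 and Igfbp7, where 16.9% of all genes were. Igfbp7, a secreted protein of vessels and matrix that binds IGF weakly, read 22.3, 24.6 and 27.0 FPKM in rats CL5, CL6 and CL7, against 40.6, 67.6 and 52.7 FPKM in rats FL2, FL5 and FL12. The groups were far apart (log2 fold change 1.09, SE 0.19, adjusted p = 0.00949 by limma), and Igfbp7 passed in all 14 alternatives. Igfbp5, a binding protein held in the extracellular matrix, read 0.33, 0.63 and 1.38 FPKM in the CL rats, against 0.98, 2.86 and 2.85 FPKM in the FL rats. CL7 was above FL2 for Igfbp5, and the log2 fold change of 1.45 did not pass (adjusted p = 0.0939), except without FL2 (1.93, 0.0322, alternatives spanning 0.0322 to 0.271), and was 0.95 with quantile normalization. Igfbp6 overlapped between the groups, from 0.77 to 1.20 FPKM in CL and from 0.19 to 2.20 FPKM in FL.

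Of the proteases and their inhibitors, Htra1 and Stc1 could be tested and 0 passed by limma, with 0 at an unadjusted p under 0.05 (all genes, 31.5% higher and 4.04% lower). Htra1, a secreted protease, read between 16.8 and 22.9 FPKM in the 6 rats. Pappa, the protease that cleaves IGFBP4, was at most 0.27 FPKM.

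Of the 5 transcription factors 0 passed by limma, and 1 was lower at an unadjusted p under 0.05, where 4.04% of all genes were. That was Foxa2, a factor of hepatocyte identity, with 10.6, 22.7 and 20.8 FPKM in rats CL5, CL6 and CL7, against 11.8, 6.65 and 6.83 FPKM in rats FL2, FL5 and FL12. CL5 was below FL2 here, and the log2 fold change of -1.06 (adjusted p = 0.0565) passed without CL5 (-1.41, 0.0253) and without FL2 (-1.33, 0.0289), alternatives spanning 0.0253 to 0.179. Onecut1, a hepatocyte factor induced by growth hormone, read 2.14, 26.2 and 26.0 FPKM in the CL rats, against 22.4, 10.6 and 5.25 FPKM in the FL rats. CL5 was again the lowest rat of all, and the FL rats followed the order seen for Socs2 and Cish. Its log2 fold change of -0.08 (adjusted p = 0.958) was -1.27 without CL5 and turned to 0.51 without CL6 or CL7 and to 0.43 without FL12. Hnf4a, a master regulator of hepatocyte genes, was abundant in both groups, at 119 to 131 FPKM in CL and 108 to 109 FPKM in FL. The groups did not overlap in it, as in 40.5% of all genes tested, and it did not pass (log2 fold change -0.21, adjusted p = 0.239 by limma).

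Sex-biased genes of the liver depend on the pattern of growth hormone, and most of those biased to males were lower in the FL rats. Of 9 symbols chosen, 6 were matched, in 7 entries since Cyp2c13 had 2, and 5 of the 7 were lower and 0 higher by limma (6 and 0 at an unadjusted p under 0.05), where 1.94% of all genes were lower (4.04% at the unadjusted p). Their median log2 fold change was -1.77, against 0.29 for all genes. Cyp2c11, a steroid hydroxylase of the male liver, read 1188, 845 and 738 FPKM in rats CL5, CL6 and CL7, against 20.5, 134 and 7.76 FPKM in rats FL2, FL5 and FL12. CL5, with its low Cish and Socs2, had the most Cyp2c11, and FL5 had the most among the FL rats. Mup5, a major urinary protein, read 24937, 48588 and 36722 FPKM in the CL rats, against 55.0, 209 and 33.0 FPKM in the FL rats. It had the most negative fold change of the list (-8.93, SE 0.65, adjusted p = 8.32e-04), followed by Cyp2c11 (-5.02, 0.87, 0.00981), Car3 (-3.67, 0.71, 0.0132) and Cyp3a18 (-1.77, 0.40, 0.0217). With no filter on low values Cyp2c11 (adjusted p = 0.0535), Car3 (0.0645) and Cyp3a18 (0.0821) were lost. Car3 passed no longer without CL7 (adjusted p = 0.0513, alternatives spanning 0.00163 to 0.0645), and Cyp3a18 without CL5 (0.0687), CL6 (0.0630), CL7 (0.0649) or FL12 (0.0558), alternatives spanning 0.00422 to 0.0821. The fifth that passed, 1 entry of Cyp2c13 (-1.23, 0.36, 0.0492), was lost in 9 of the 14 alternatives, among them without CL5 (0.123), CL6 (0.119), CL7 (0.131) or FL12 (0.114), alternatives spanning 0.0270 to 0.221.

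Of the genes biased to females, 1 of 5 tested was higher and 0 lower by limma, where 16.9% and 1.94% of all genes were, and the same counts held at an unadjusted p under 0.05, where 31.5% and 4.04% were. Cyp2c12, the steroid hydroxylase typical of the female rat liver, read 2.47, 6.89 and 6.37 FPKM in rats CL5, CL6 and CL7, against 62.3, 62.0 and 58.9 FPKM in rats FL2, FL5 and FL12. The FL rats were alike and far above each CL rat, and CL5 was the lowest. The log2 fold change was 3.65 (SE 0.34, adjusted p = 0.00166 by limma), and it passed in all 14 alternatives. A1bg, Srd5a1, Prlr and Cux2 did not pass, and Cyp2c7 was too low to be tested. Genes of the Cyp2c and Mup families are near copies of each other, and only uniquely mapped reads had been kept, so their values are uncertain.

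Of 6 entries for genes that insulin represses through FoxO1 (Igfbp1, Pck1, Irs2, Ppargc1a and 2 for G6pc), 0 passed by limma, against 1 higher at an unadjusted p under 0.05 (31.5% of all genes). Without CL5, Igfbp1 and Ppargc1a passed as higher, where 8.76% of all genes did. Ppargc1a, a coactivator of gluconeogenic genes, read 1.77, 1.04 and 1.10 FPKM in rats CL5, CL6 and CL7, against 2.73, 2.38 and 1.83 FPKM in rats FL2, FL5 and FL12, with CL5 just below FL12. Its log2 fold change was 0.80 (SE 0.25, adjusted p = 0.0595), 1.03 without CL5 (0.0416, alternatives spanning 0.0416 to 0.472) and 0.34 with quantile normalization. The more abundant entry of G6pc, the last enzyme of glucose release, read 113, 34.6 and 29.9 FPKM in rats CL5, CL6 and CL7, against 119, 78.3 and 49.4 FPKM in rats FL2, FL5 and FL12. CL5 was close to FL2 and far above CL6 and CL7, the arrangement also seen for Igfbp1. In the other entry of G6pc CL5 was the lowest of all 6 rats, at 9.16 FPKM, with 9.16 to 12.5 FPKM in CL and 10.1 to 14.6 FPKM in FL. Pck1, which starts gluconeogenesis, read 498, 446 and 432 FPKM in the CL rats, against 519, 435 and 197 FPKM in the FL rats, so CL5 was little different from the other CL rats.

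Markers of liver cell types moved between the groups as well, and their part in the results above was not tested. Beside the counts of markers below, 16.9% of all genes passed as higher and 1.94% as lower, and 31.5% and 4.04% did at an unadjusted p under 0.05. Of 8 hepatocyte markers 0 passed by limma (2 were higher and 0 lower at an unadjusted p under 0.05), with a median log2 fold change of 0.01. Their summed level was 51190, 48700 and 49200 FPKM in rats CL5, CL6 and CL7, against 41630, 43320 and 42330 FPKM in rats FL2, FL5 and FL12. Most of this was Alb, with 33392, 31431 and 31992 FPKM in the CL rats, against 24149, 25052 and 25209 FPKM in the FL rats, so the tissue was hepatocyte-rich in all 6 rats. Without overlap, Alb, Ttr and Apob were lower and Apoa1 and Tf higher in the FL rats. Of all genes tested, 40.5% did not overlap between the groups. Alb had a wide error by limma with trend (log2 fold change -0.38, SE 0.98, adjusted p = 0.804, alternatives spanning 0.0789 to 1). This moderated error was far wider than the spread of Alb between rats, whose SD was 1010 FPKM in CL and 572 FPKM in FL. Tf, Ttr and Serpina1, which were abundant too, had SEs of 0.48, 0.42 and 0.36. The count of 0 hepatocyte markers that passed has to be read with these errors. Of 8 markers of stellate cells and myofibroblasts 5 were higher and 0 lower, with sums of 87.6, 91.3 and 84.1 FPKM in the CL rats, against 203, 541 and 490.3 FPKM in the FL rats, and Col3a1 as the most abundant.

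Of 7 macrophage markers 3 were higher, and they summed to 109.6, 103.6 and 111 FPKM in rats CL5, CL6 and CL7, against 246, 222 and 136 FPKM in rats FL2, FL5 and FL12, with Clec4f the most abundant except in FL2 (Marco) and FL12 (Cd68). Of 6 endothelial markers tested 2 were higher, with sums of 73.7, 72.2 and 64.8 FPKM in the CL rats, against 88.9, 75.5 and 83.4 FPKM in the FL rats, and Kdr the most abundant except in FL12 (Lyve1). Of 5 cholangiocyte markers 0 passed by limma (1 was higher at an unadjusted p under 0.05), with sums of 5.38, 7.75 and 5.58 FPKM in the CL rats, against 5.38, 8.06 and 11.3 FPKM in the FL rats, and Epcam the most abundant. Of 4 lymphocyte markers tested Cd2 was higher, and which marker was most abundant differed between rats, with list sums of 0.60 to 1.19 FPKM in CL and 1.82 to 2.84 FPKM in FL. The summed levels of the stellate, macrophage, endothelial and lymphocyte lists were above those of every CL rat in every FL rat, and those of the cholangiocyte list overlapped. Of 14864 genes tested, 5311 were higher without overlap. These sums are of FPKM without scaling between rats. For the endothelial list FL5 (75.5 FPKM) was barely above CL5 (73.7 FPKM). Median scaling divides FL5 by 1.101 and CL5 by 0.9317, which puts FL5 below CL5.

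Genes of the daily clock separated the groups too. They were added after their values had been seen, and they are given as levels without a test. Dbp, a clock-driven transcription factor of the liver, read 0.46, 0.91 and 0.81 FPKM in rats CL5, CL6 and CL7, against 25.6, 27.1 and 31.8 FPKM in rats FL2, FL5 and FL12. Arntl, the core clock activator of the opposite phase, read 12.4, 11.6 and 10.7 FPKM in the CL rats, against 3.71, 3.82 and 2.88 FPKM in the FL rats. CL5 lay near CL6 and CL7 in both. Nr1d1, a repressor of Arntl, read 6.38, 2.72 and 3.45 FPKM in the CL rats, against 25.3, 33.0 and 15.7 FPKM in the FL rats, and here CL5 was the CL rat nearest to the FL rats. Per3, Tef and Npas2 did not overlap between the groups either, as 40.5% of all genes tested did not. The hour at which each liver was taken is not given in the sources used here, and the part of the clock in the differences of the axis was not tested.

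Since Cish and Igfbp1 were the genes, of the 10, in which CL5 went farthest from the rest of its group in each direction, their promoters are shown. Of the 10 genes, 9 had an entry among the RefSeq promoters (build GRCr8), and Socs2 was the one without. The 250 bases before each start were searched for TTCNNNGAA, the palindromic core that STAT factors bind, which reads the same on both strands. Cish was the only one of the 9 with a match, and had 4 of them, where 7.67% of 33469 rat promoters had at least 1 and 0.00598% (2 promoters) had at least 4. The stretch from -250 to -101 of Cish, chr8:116850719-116850868 on the plus strand, is given 5′ to 3′ with the 4 matches in capitals. They begin at positions -241, -230, -136 and -119.
Cish: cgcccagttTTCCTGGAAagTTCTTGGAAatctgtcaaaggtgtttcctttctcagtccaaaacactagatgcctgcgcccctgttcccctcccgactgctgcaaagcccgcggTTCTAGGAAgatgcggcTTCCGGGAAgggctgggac

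The same windows were searched on both strands for CAAAACA and for its reverse complement TGTTTTG, the core of the insulin response element that FoxO factors bind. It was found in 3 of the 9 genes, Igf1, Igfbp1 and Cish, and in 5.46% of all promoters, and in Cish it shared no base with the STAT matches. The stretch from -150 to -91 of Igfbp1, chr14:86261127-86261186 on the plus strand, is given with the match, which begins at -121, in capitals. These matches describe the letters of the promoters, and no binding was measured.
Igfbp1: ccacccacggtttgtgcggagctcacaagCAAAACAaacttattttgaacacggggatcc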

How the data were processed

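RNA from 3 CL and 3 FL livers was sequenced, with groups taken from the labels. The authors used FASTX-Toolkit for trimming and TopHat2 for alignment with 4 mismatches allowed, kept uniquely mapped reads, and deposited FPKM per gene and rat with 2 decimals. GRCh38 is named as the genome, but genes carry Ensembl identifiers of Rattus norvegicus, and which annotation release was used is not given in the sources used here. In the same table, 2 columns of values belong to no sample and were not used.

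FPKM are not counts, so limma with trend was fitted to log2(FPKM + 0.1) over all genes averaging at least 0.1 FPKM, without further scaling, and only genes of the axis and its lists are reported. Standard errors are limma's moderated ones. The procedure was tested on simulated data. Without read counts, no counting error could be attached to a value.

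The members and lists were chosen with earlier results of these data known. Named were all 10 members, genes of the 7 pathway lists that passed (others where a small count needed them), and at most 4 passing genes of each other list. Some genes that did not pass were named as well. Alb, Clec4f, Kdr, Lyve1 and Epcam were named as the most abundant of a list, and Alb, Ttr, Apob, Apoa1 and Tf for not overlapping. Stat5a, Sh2b1, Ptpn11, Htra1, Stc1, A1bg, Srd5a1, Cux2 and Irs2 were named as list members, as were genes too low to be tested. Genes named beyond this rule for the place of single rats (Socs3, Stat3, Prlr, Igf1r, Igfbp5, Igfbp6, Insr, Igf2, Pappa, Onecut1, Hnf4a, Socs5, Socs6, G6pc, Pck1, Ppargc1a and the clock genes) were chosen after their values were seen. Cyp2c13 was named as the fifth of its list that passed. Cyp2a2, Cyp3a2 and Pecam1 matched no symbol, and Ca3 was searched as another name of Car3. In the list totals, 2 further genes are counted that are not reported here.

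Alternatives tried were pseudocounts of 1 and 0.01, a minimum mean of 1 FPKM or none, quantile normalization, median scaling, limma with a robust prior, limma without trend, each rat left out in turn, and a fold change of at least 2. Promoter sequences are RefSeq's. R 4.3.3, limma 3.58.1, Python 3.11.15, numpy 2.4.6, pandas 2.3.3 and matplotlib 3.10.9 were used.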

Additional observations from a re-analysis of the deposited data

How the results depend on the processing

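Over 29 named genes and 14 alternatives each, 340 of 406 fold changes kept their direction and their side of the threshold, 49 no longer passed, 12 passed newly and 5 turned. Those that turned had not passed: Igfbp3 (-0.10) and Igfbp4 (-0.030) with median scaling, and Onecut1 without CL6 (0.51), CL7 (0.51) and FL12 (0.43), in a range from -1.27 (without CL5) to 0.51 over the rats left out. The number of higher genes among the 10 of the axis, 1, became 0 with no filter on low values, with quantile normalization and by limma without trend, and ran from 0 to 2 when a rat was left out. The number of lower genes, 3, became 2 with no filter on low values and by limma without trend. It ran from 1 to 4 when a rat was left out and became 0 with a fold change of at least 2. Of the 40 pathway genes tested, the 6 higher became 2 with quantile normalization and 2 to 9 when a rat was left out. They became 4 with no filter on low values, with median scaling and by limma without trend, and 7 with a minimum mean of 1 FPKM. The 3 lower became 1 to 5 when a rat was left out, and 2 with no filter on low values and by limma without trend. Leaving out a rat lowers the number of samples, and the fold limit adds a criterion. For the other settings the cause was not tested. No paired analysis was possible because the groups share only 1 rat number (5), which does not mark the same animal. Without read counts, the depth behind low values such as those of Cish, Jak2, Igf1r and Igfbp5 could not be given.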

Other observations

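Gadd45g and Dusp1, like Cish, Socs2 and Onecut1, were at least 4-fold lower in CL5 than in CL6 and CL7. Gadd45g, a growth arrest gene, read 2.14, 26.4 and 38.2 FPKM in rats CL5, CL6 and CL7, against 3.44, 2.24 and 3.16 FPKM in rats FL2, FL5 and FL12, so CL5 lay below all of them. Dusp1, a phosphatase of MAP kinases, read 5.21, 45.7 and 43.1 FPKM in the CL rats, against 36.4, 16.8 and 4.71 FPKM in the FL rats, and FL12 was the only rat below CL5. Of the genes higher in CL5, Acot5, an acyl-CoA thioesterase, read 10.4, 2.49 and 2.29 FPKM in the CL rats, against 2.23, 7.50 and 5.48 FPKM in the FL rats. These genes were chosen after their values were seen.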
